A study of Mus musculus with 20 samples.

Results

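The 10 genes of de novo lipogenesis, the synthesis of fatty acids from carbohydrate carbon, were taken by symbol from the count tables: Srebf1, Mlxipl, Acly, Acaca, Acacb, Fasn, Scd1, Elovl6, Me1 and Thrsp. They are 10 of the 37681 genes listed, and all 10 were among the 15578 genes detected, meaning that 5 or more of the 10 libraries of some table held no fewer than 5 reads. Livers came from wild-type male C57/B6J mice aged 12 weeks, 5 given IL-1β at 20 µg/kg and 5 given saline (called untreated) by intraperitoneal injection 4 hours before collection. IL-1β is a cytokine released by immune cells that makes hepatocytes switch on the acute phase response. RNA of each mouse was read by both Illumina (HiSeq) and Ion Torrent (Proton) sequencing and aligned in 3 ways, which gave 6 tables of 10 libraries. The feeding state of the mice is not given in the sources used here.

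De novo lipogenesis runs in hepatocytes when carbohydrate is plentiful. Citrate leaving the mitochondria is split to acetyl-CoA, which is carboxylated to malonyl-CoA, built into palmitate, and then elongated and desaturated. Most of these enzymes are controlled by the transcription factors SREBP-1c, a product of Srebf1 that responds to insulin, and ChREBP, the product of Mlxipl that responds to glucose.

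With IL-1β, both transcription factor genes and the genes of acetyl-CoA and malonyl-CoA supply were lower, while the enzymes that desaturate and elongate the product did not pass the test. In the Illumina libraries aligned with STAR, Srebf1 fell to 21.3% of its untreated level, Acaca to 45.6%, Mlxipl to 49.5%, Acacb to 53.7% and Acly to 62.5%. Those 5 of the 10 genes fell and 0 rose (edgeR quasi-likelihood test, adjusted p below 0.05 over all genes tested), where 22.9% of all 15578 tested genes fell and 45.7% changed in either direction. The median log2 fold change of the 10 genes was -0.64, against 0 for all tested genes. Of the 10 genes, 3 (Srebf1, Mlxipl and Acaca) had every treated mouse below every untreated mouse, which 16.2% of all tested genes did. Fasn, Scd1, Elovl6, Me1 and Thrsp did not pass. The same 5 genes fell in the other Illumina tables, where 23.9% of all tested genes fell with GSNAP and 24.4% with STAR + Bowtie2. In the 3 Ion Torrent tables Fasn passed as well, so that 6 genes fell there, against 23.9%, 21.8% and 24% of all tested genes with GSNAP, STAR and STAR + Bowtie2. Other tests of the Illumina STAR counts called 5 of the 10 genes lower with DESeq2 (23% of all tested genes), limma-voom (22.9%) and the rank-sum test on deposited counts (24.3%), and 4 with the rank-sum test on scaled CPM (19.3%).

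The RefSeq bases just upstream of annotated transcript starts (assembly GRCm38.p6) are shown for genes that fell and genes that did not pass, so that their control sequence can be set side by side. Each line gives 150 bases 5′ to 3′, ending at the base before a start. Capitals mark motif matches on either strand: the sterol regulatory element TCACNCCAC, the E-box CACGTG, the CCAAT box CCAAT, the GC box GGGCGG and the TATA box TATAAA. Srebf1, Mlxipl and Me1 each have more than 1 annotated start among the windows used here. Acly, Acaca, Acacb and Fasn also have more than 1 annotated transcript, and any further starts of theirs were not searched. Per-gene counts do not separate transcripts that begin at different starts. For Srebf1, start A follows chr11:60220628-60220777 and start B follows chr11:60210472-60210621, both on the minus strand. For Mlxipl, start A follows chr5:135089740-135089889 and start B follows chr5:135106741-135106890, both on the plus strand. The windows of Acly (chr11:100528001-100528150), Fasn (chr11:120824548-120824697) and Thrsp (chr7:97417551-97417700) are all on the minus strand.
Srebf1 start A: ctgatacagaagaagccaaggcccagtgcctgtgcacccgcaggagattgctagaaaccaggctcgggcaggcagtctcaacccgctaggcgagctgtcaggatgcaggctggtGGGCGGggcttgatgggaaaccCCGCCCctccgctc
Srebf1 start B: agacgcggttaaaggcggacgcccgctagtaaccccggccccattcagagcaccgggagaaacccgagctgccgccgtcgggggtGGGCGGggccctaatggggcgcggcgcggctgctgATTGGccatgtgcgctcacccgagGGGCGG
Mlxipl start A: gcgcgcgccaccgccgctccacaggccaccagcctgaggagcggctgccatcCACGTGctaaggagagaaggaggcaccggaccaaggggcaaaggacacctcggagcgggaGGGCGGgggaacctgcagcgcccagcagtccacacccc
Mlxipl start B: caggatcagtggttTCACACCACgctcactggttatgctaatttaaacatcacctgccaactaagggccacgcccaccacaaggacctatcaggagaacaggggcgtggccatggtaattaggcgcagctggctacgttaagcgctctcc
Acly: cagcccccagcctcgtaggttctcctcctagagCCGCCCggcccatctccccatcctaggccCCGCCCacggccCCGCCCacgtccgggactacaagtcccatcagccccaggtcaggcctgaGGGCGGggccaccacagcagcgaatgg
Fasn: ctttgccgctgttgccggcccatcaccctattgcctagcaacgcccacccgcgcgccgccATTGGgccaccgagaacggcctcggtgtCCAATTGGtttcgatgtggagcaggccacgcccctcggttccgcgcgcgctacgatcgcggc
Thrsp: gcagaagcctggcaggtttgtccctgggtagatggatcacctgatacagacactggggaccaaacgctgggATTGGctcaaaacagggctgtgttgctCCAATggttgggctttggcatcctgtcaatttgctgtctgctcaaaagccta

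Among the windows of the 9 genes that had an entry, the sterol regulatory element letters and the E-box letters were found only upstream of Mlxipl, the first at bases 136 to 128 before start B and the second at bases 98 to 93 before start A. Over 250 bases, these motifs were present in 1.05% and 6.02% of 32851 RefSeq windows. Only the exact letters of each motif were searched, not variant spellings. A gene without a match, such as Srebf1 or Fasn, is therefore not shown to lack a sterol regulatory element or an E-box. Fasn had CCAAT boxes at 90 to 86, 62 to 58 and 59 to 55 bases before its start, where the last pair overlap and lie on opposite strands. Thrsp had CCAAT boxes at 79 to 75 and 52 to 48, and Me1 had one at 208 to 204 before 1 of its starts. Among genes that fell, Srebf1 had one at 30 to 26 before start B and one at 166 to 162 before a further start whose window is not printed (chr11:60222582-60222731, minus strand), Mlxipl had one at 173 to 169 before start A, outside the printed bases, and Acacb had one at 87 to 83. By the calls of the Illumina STAR table, CCAAT boxes were thus found for 3 of the 5 genes that fell and for 3 that did not pass. Fasn, counted with the latter, passed as lower in the 3 Ion Torrent tables. The CCAAT box was in 33.8% of all windows, a share per window, whereas genes with more than 1 window had more chances of a match. Acly had 4 GC boxes, a motif in 32.7% of windows. GC boxes were also found for Srebf1 and Mlxipl, which fell, and for Me1, which did not pass. They were not found for Acaca, Acacb, Fasn, Elovl6 or Thrsp. Acacb, not printed, had the only TATA box among these genes, 34 to 29 bases before its start, a motif in 12.4% of windows. The windows of Acaca and Elovl6 held none of the 5 motifs as spelled here, which says only that these letters are absent from them. The Acaca window (chr11:84195288-84195437, plus strand) was not shown to lie at the 5′ end of that gene, which has 7 annotated transcripts. Scd1 was not among the windows used here.

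Several facts of the whole data set bear on the values. Library totals were 10568530 to 11046256 in the Illumina STAR table and 12199528 to 12723326 in the Ion Torrent STAR table. Levels are given as CPM, the share of a library's reads that a gene holds in the usual CPM unit, after TMM scaling, which allows for the reads that strongly induced genes use up. Over the 11929 tested genes averaging 10 or more reads in the Illumina STAR table, the median log2 fold change was -0.12 by library totals alone and 0.0047 after scaling. The acute phase genes Saa1, Saa2, Lcn2 and Hp were higher in every treated mouse, with log2 fold changes of 6.99, 8.58, 9.90 and 2.47. Summed hepatocyte markers (Alb, Apoa1, Apob, Ttr, Cps1 and Hnf4a) were 69890 to 78860 CPM in treated and 87470 to 108000 CPM in untreated mice. Alb made up most of these sums, with means of 54567 CPM in treated and 78855 CPM in untreated mice. Of these 6 markers, 1 rose (Hnf4a), 2 fell (Alb and Cps1) and 3 did not pass. Summed neutrophil markers (7 genes, of which S100a8, S100a9 and Ngp were detected and rose) were 35.1 to 80.2 CPM in treated and 0.622 to 2.58 CPM in untreated mice. Kupffer cell markers summed to 57.7 to 135 CPM with IL-1β and 107 to 181 CPM without, and of the 6, Clec4f and Vsig4 fell, Marco rose by 2.16 on the log2 scale and 3 did not pass. Endothelial markers summed to 65.9 to 118 CPM and 105 to 156 CPM, and of the 5, Kdr and Clec4g fell, Lyve1 rose by 1.49 and 2 did not pass. Stellate cell markers summed to 48.1 to 77.2 CPM and 77.5 to 110 CPM, and of the 5, Lrat, Reln and Hand2 fell, Ngfr rose by 1.36 and 1 did not pass. Cholangiocyte markers summed to 9.06 to 14.7 CPM and 4.37 to 7.07 CPM, and of the 4, Sox9 and Epcam rose and 2 did not pass. Of the adipocyte markers, which matter because fat tissue also uses these genes, Plin1 and Lep had 0 reads and Adipoq and Retn had group means of at most 0.4 reads in the Illumina STAR table (at most 0.8 reads for any of the 4 in the Ion Torrent STAR table), Cfd did not pass, and Fabp4, also made by other cells, rose by 1.42 on the log2 scale. The part of these marker differences in the lipogenesis results was not tested, and fewer cells of a type cannot be told apart from less RNA per cell in bulk tissue.

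Mouse UNT_9584 stood apart between the platforms. The authors also reported that its read counts correlated less between platforms than those of the other samples, and that its Ion Torrent read lengths were shifted. The part of read length in the values below was not tested. The deviations of a mouse's Illumina and Ion Torrent libraries from their group means, over 10543 genes, correlated at 0.614 to 0.750 in 9 mice and at 0.247 in UNT_9584. The Illumina library of UNT_9584 deviated most like the Ion Torrent library of treated mouse ILB_9578, at 0.321. Leaving it out changed the call of none of the 10 genes in the Illumina STAR or the Ion Torrent STAR table by edgeR, and Scd1 was the only one of them whose sign turned in either table. Among the lipogenesis genes, untreated mouse UNT_9576 stood high as well, with the highest untreated level of 7 of the 10 genes in the Illumina STAR table and of 5 in the Ion Torrent STAR table.

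Per-mouse values below are from the Illumina STAR table unless another is named. They are listed for untreated mice UNT_9574, UNT_9575, UNT_9576, UNT_9580 and UNT_9584 and for treated mice ILB_9577, ILB_9578, ILB_9579, ILB_9582 and ILB_9583, in that order.

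**Figure D1:**
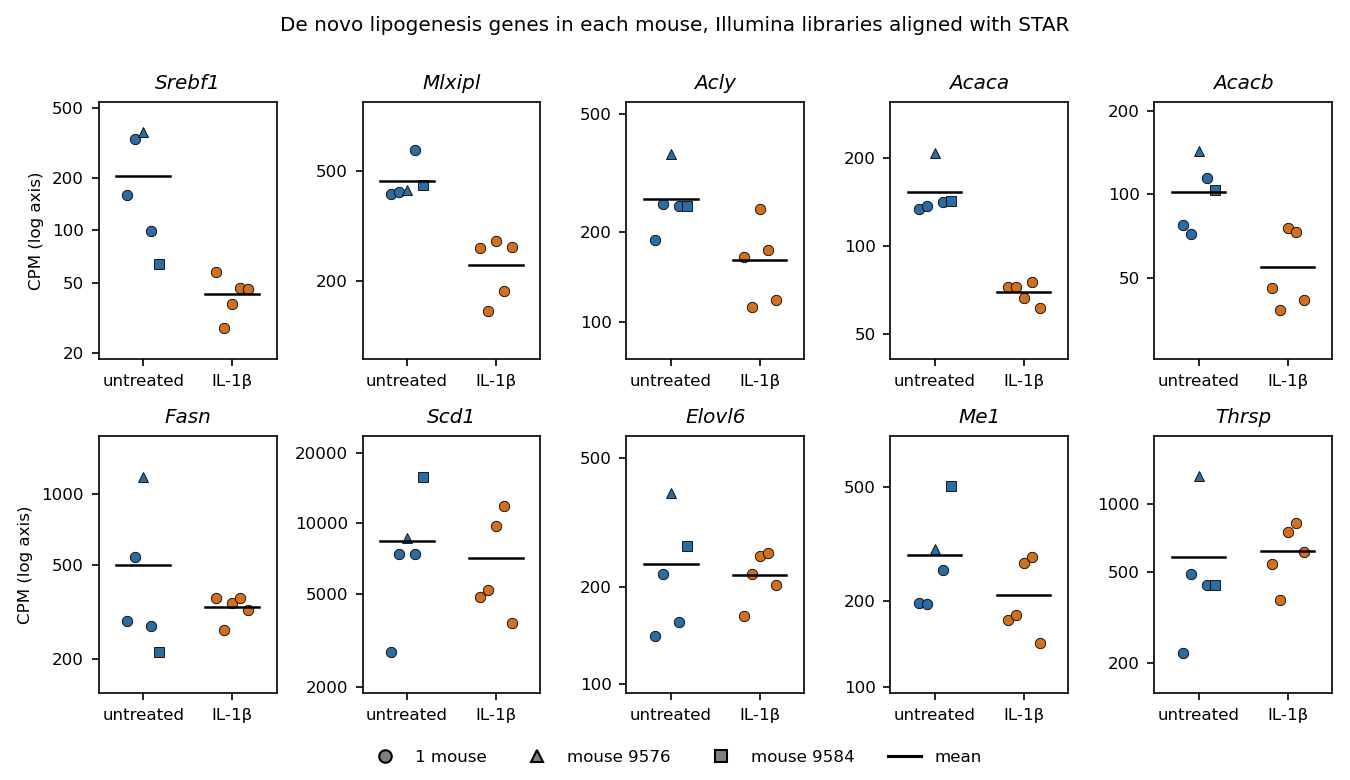
Levels of the 10 lipogenesis genes in each mouse, in CPM on a log axis, from Illumina libraries aligned with STAR. Points are mice, triangles are mouse UNT_9576, squares are mouse UNT_9584 and lines are means of 5 mice. Treated and untreated mice do not overlap for Srebf1, Mlxipl and Acaca, whereas for Fasn, Scd1, Elovl6 and Thrsp the treated mice lie within the untreated range.

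Both transcription factor genes fell with no overlap between the groups. Srebf1 (ENSMUSG00000020538, chr11:60012591-60036083 on mm9, minus strand) encodes SREBP-1a and SREBP-1c. Its levels were 159, 333, 363, 99.3 and 64.0 CPM in the untreated mice and 58.1, 27.6, 37.9, 46.9 and 46.2 CPM in the treated mice. All treated mice were lower than all untreated mice, but the highest treated mouse (58.1) and the lowest untreated mouse (64.0, mouse UNT_9584) were close. The means were 204 ± 136 (SD, n = 5) and 43.3 ± 11.4 (SD, n = 5) CPM, a log2 fold change of -2.23 (SE 0.394, edgeR adjusted p = 0.000282). Untreated levels spanned 5.67 times from lowest to highest (3.65 times without UNT_9584), and treated levels 2.11 times. In the Ion Torrent STAR table, the untreated values were 267, 608, 597, 143 and 195 CPM and the treated values 82.1, 38.7, 73.1, 69.2 and 79.9 CPM. There the lowest untreated mouse was UNT_9580 and the gap between the groups was wider. Without UNT_9584 the log2 fold change was -2.46 with Illumina and -2.56 with Ion Torrent libraries. Exons of Srebf1 and of Rai1 on the opposite strand share 109 annotated bases, and whether counting used strand is not given in the sources used here.

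Mlxipl (ENSMUSG00000005373, chr5:135582761-135614254, plus strand) was at 415, 421, 428, 598 and 447 CPM in the untreated mice. In the treated mice it was at 262, 155, 278, 184 and 265 CPM. The groups were separated by a wide gap, and the untreated mice were close to each other except for UNT_9580. On the log2 scale the change was -1.01 (SE 0.163, edgeR adjusted p = 0.000125). Unlike for Srebf1, mouse UNT_9576 was not high for Mlxipl, at 428 CPM against a group mean of 462 ± 77.2 (SD, n = 5) CPM. In the Ion Torrent STAR table the change was -1.19.

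The acetyl-CoA step came next. Acly (ENSMUSG00000020917, chr11:100337667-100389314, minus strand) encodes ATP citrate lyase, which makes cytosolic acetyl-CoA from citrate. Untreated mice had 188, 249, 368, 245 and 246 CPM and treated mice had 165, 112, 239, 175 and 118 CPM. Of the treated mice, 4 lay below every untreated mouse, and ILB_9579 (239) lay among them. The fitted log2 fold change was -0.68 (SE 0.203, edgeR adjusted p = 0.0126), and it kept its call in the other 5 tables, at -0.75 to -0.68.

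The carboxylases make malonyl-CoA. Acaca (ENSMUSG00000020532, chr11:83943174-84215153, plus strand) encodes acetyl-CoA carboxylase 1, the cytosolic enzyme that supplies the synthase. Its levels were 133, 137, 207, 141 and 143 CPM in untreated and 72.2, 72.4, 66.2, 75.3 and 61.5 CPM in treated mice. Among the 10 genes Acaca had the narrowest spread within the treated group, with a coefficient of variation of 7.995%, and every treated mouse was near the 69.5 CPM mean. Its log2 fold change was -1.13 (SE 0.124, edgeR adjusted p = 3.53e-06).

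Acacb (ENSMUSG00000042010, chr5:114596544-114700770, plus strand) encodes acetyl-CoA carboxylase 2, whose malonyl-CoA restrains fatty acid entry into mitochondria. Untreated mice had 77.4, 72.0, 144, 115 and 103 CPM and treated mice had 46.1, 38.3, 75.5, 73.0 and 41.6 CPM. The groups overlapped, since treated mice ILB_9579 and ILB_9582 lay within the untreated range. On the log2 scale the change was -0.90 (SE 0.218, edgeR adjusted p = 0.00339). By the rank-sum test on scaled CPM it did not pass, with an adjusted p of 0.0699 by that test. The Ion Torrent STAR value was -1.13, and -0.94 without UNT_9584. The transcripts of Acaca and Acacb are 72.3% identical over 3370 aligned bases.

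Fatty acid synthase is the enzyme on which the platforms gave different calls. Fasn (ENSMUSG00000025153, chr11:120667254-120685492, minus strand) assembles palmitate from malonyl-CoA. In the Illumina STAR table it was at 288, 541, 1169, 275 and 215 CPM in untreated and 361, 265, 343, 362 and 321 CPM in treated mice. All treated mice lay inside the untreated range, which was stretched by UNT_9575 and UNT_9576. The fitted log2 fold change was -0.59 (SE 0.357, 95% interval -1.35 to 0.17, edgeR adjusted p = 0.199). Without mouse UNT_9576 it was 0.0024, and without UNT_9584 it was -0.78 with an adjusted p of 0.0742 by edgeR. The medians run the other way from the means, at 288 CPM untreated and 343 CPM treated.

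In the Ion Torrent STAR table, Fasn was at 458, 967, 1743, 396 and 573 CPM in untreated mice and 491, 348, 499, 494 and 451 CPM in treated mice. Only 1 treated mouse (ILB_9578) lay below every untreated mouse. Its log2 fold change was -0.86 (SE 0.303, edgeR adjusted p = 0.0305). The call did not hold without UNT_9576, where the value was -0.39 with an edgeR adjusted p of 0.151. It also did not hold without UNT_9575, ILB_9578, ILB_9582 or ILB_9583, where edgeR adjusted p was 0.0606, 0.0800, 0.0526 and 0.0618. Tested directly with the mouse as a block, the Fasn effect was 0.32 lower on the log2 scale in the Ion Torrent than in the Illumina data (difference -0.32, SE 0.111, unadjusted p = 0.00711 by edgeR), with an adjusted p of 0.653 over all genes. None of the 10 genes passed that test, which 0.00642% of all tested genes did, and 7% of all tested genes had an unadjusted p below 0.05. That share of all genes was 0.0642% with GSNAP, 0.077% with STAR + Bowtie2 and 0.0642% without UNT_9584, and none of the 10 genes passed in any of these. Without UNT_9584 that difference was -0.17. Mouse UNT_9584 was the lowest untreated Illumina library for Fasn and the third highest in the Ion Torrent table.

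**Figure D2:**
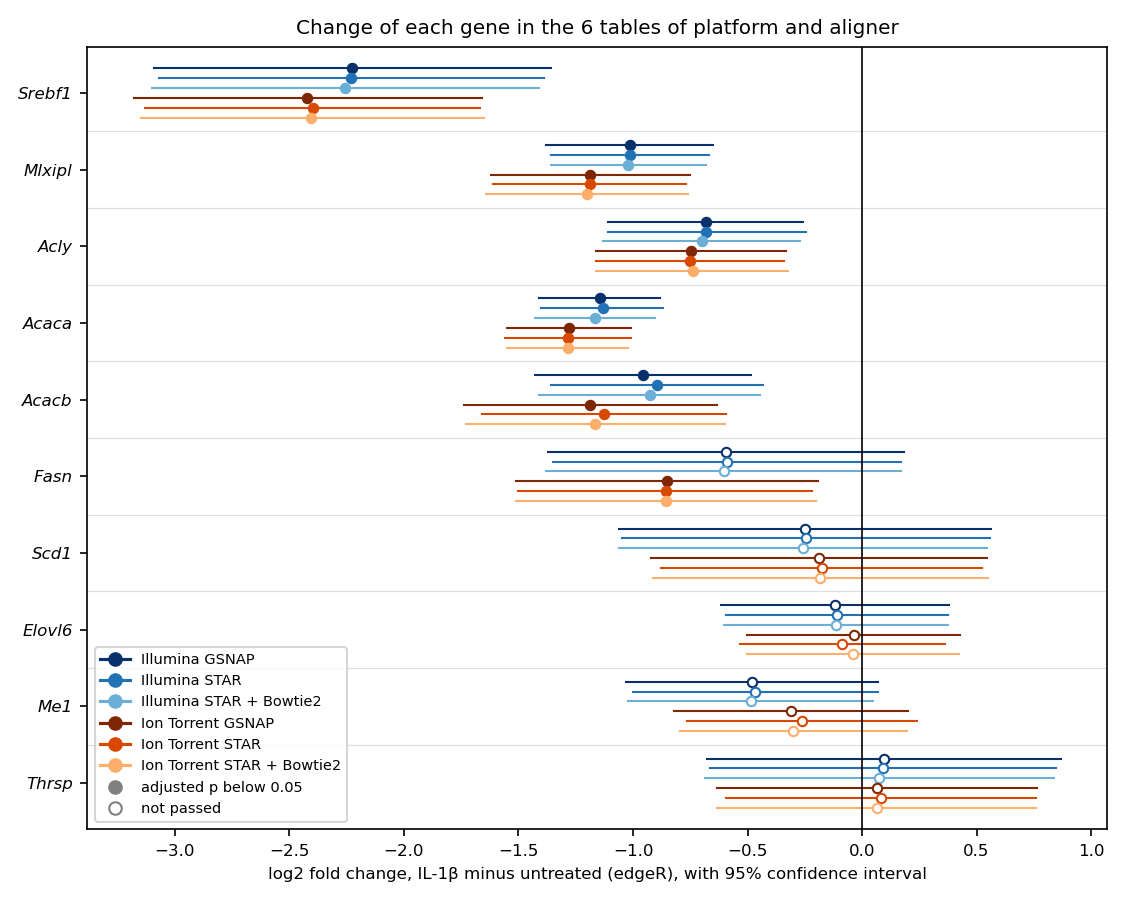
Log2 fold change (IL-1β minus untreated) of each gene in the 6 tables of platform and aligner, with 95% confidence intervals from edgeR. Filled points passed an adjusted p of 0.05 and open points did not. The 3 aligners give nearly the same value within a platform, and only Fasn differs in its call between platforms.

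Neither of the enzymes that modify palmitate passed the test. Scd1 (ENSMUSG00000037071, chr19:44468941-44482199, minus strand) encodes stearoyl-CoA desaturase, which makes oleate and palmitoleate. It was at 2817, 7377, 8664, 7379 and 15800 CPM in untreated and 4871, 5184, 9797, 11851 and 3756 CPM in treated mice. The groups overlapped across nearly their whole range. Its log2 fold change was -0.25 (95% interval -1.05 to 0.56, edgeR adjusted p = 0.647), and 0.11 without mouse UNT_9584, the highest library. That interval reaches past the fall of Mlxipl. The transcripts of Scd1 and Scd2 are 86.8% identical over 1261 bases, and Scd2 was at 7.05 ± 1.75 (SD, n = 5) CPM untreated.

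Elovl6 (ENSMUSG00000041220, chr3:129235304-129341413, plus strand), the elongase that turns palmitate into stearate, was at 140, 218, 389, 156 and 267 CPM in untreated mice. Treated mice had 162, 218, 249, 253 and 202 CPM and all lay within the untreated range. On the log2 scale the change was -0.11 (95% interval -0.60 to 0.38, edgeR adjusted p = 0.750). Without UNT_9576 it was 0.15.

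Me1 and Thrsp support the pathway from outside the carbon chain. Me1 (ENSMUSG00000032418, chr9:86474970-86589947, minus strand) encodes malic enzyme, a source of NADPH for the synthase. Its untreated values were 196, 194, 303, 255 and 500 CPM and its treated values 172, 179, 270, 285 and 143 CPM. Of the treated mice, 3 were below every untreated mouse, and the highest untreated value was that of UNT_9584. The fitted log2 fold change was -0.47 (SE 0.251, edgeR adjusted p = 0.149) and -0.18 without UNT_9584. In the 5 other tables it was -0.49 to -0.26, and it did not pass in any.

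Thrsp (ENSMUSG00000035686, chr7:104561448-104566240, minus strand) encodes the Spot 14 protein, a nuclear and cytosolic factor long known as a marker of lipogenic induction. It was at 221, 493, 1323, 440 and 441 CPM in untreated and 543, 380, 752, 824 and 613 CPM in treated mice. Mouse UNT_9576 alone lay above the treated mice, and mouse UNT_9574 alone lay below them. Its log2 fold change was 0.09 (95% interval -0.66 to 0.85, edgeR adjusted p = 0.885), and with library totals in place of TMM it was -0.04. Without mouse UNT_9576 it was 0.64 with an edgeR adjusted p of 0.0419, so 1 mouse decides whether Thrsp passes as higher in the Illumina table. In the Ion Torrent table without UNT_9576 it was 0.56 and did not pass.

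The spread among mice was itself unequal between genes. In the untreated mice the coefficient of variation was 79.5% for Fasn, 73.1% for Thrsp, 66.99% for Srebf1 and 55.8% for Scd1, but 16.7% for Mlxipl and 20.4% for Acaca. Several of these rest on 1 mouse. Without UNT_9576 the untreated coefficient was 43.9% for Fasn, 30.3% for Thrsp, 3.14% for Acaca and 12.6% for Acly, which was 25.4% with it. Without UNT_9580 it was 3.24% for Mlxipl, and without UNT_9584 it was 39.1% for Scd1, 54.2% for Srebf1 and 21.9% for Me1, which was 43.5% with it. In the treated mice it was 12.1% for Fasn (5.54% without ILB_9578), 28.1% for Thrsp, 26.2% for Srebf1 and 49.7% for Scd1. Treated mouse ILB_9578 was lowest of its group for 6 of the 10 genes, and the same 6 genes (Srebf1, Mlxipl, Acly, Acacb, Fasn and Thrsp) were lowest in it on both platforms. Untreated mouse UNT_9574 was also lowest in its group for 6 genes on each platform, 5 of them shared.

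**Figure D3:**
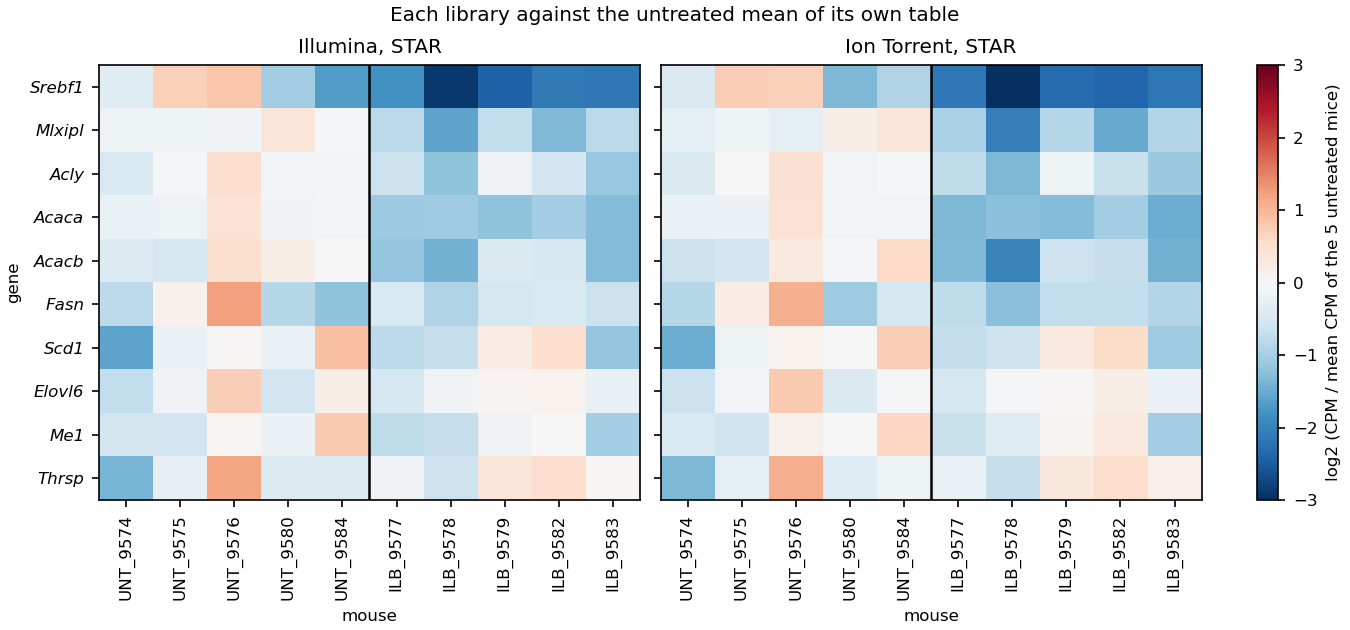
Log2 ratio of each library's CPM to the mean CPM of the 5 untreated mice of its own table, for Illumina and Ion Torrent libraries aligned with STAR. Rows are genes and columns are mice, untreated left of the line and treated right. Srebf1 is blue across the treated mice on both platforms, Scd1, Elovl6, Me1 and Thrsp are mixed, and UNT_9576 is red for most genes.

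Levels can be compared between genes only per length. Divided by exon length, the untreated means in the Illumina STAR table were 1739 CPM per kb for Scd1, 457 for Thrsp, 86.1 for Mlxipl, 81.0 for Me1, 50.5 for Fasn, 49.1 for Acly, 39.3 for Elovl6, 36.2 for Srebf1, 15.0 for Acaca and 10.61 for Acacb. Each gene's range over the mice overlapped that of its neighbour in this order, except for Thrsp and Mlxipl. In the treated mice Srebf1 was at 7.69 CPM per kb, next to Acaca at 6.82 and Acacb at 5.70, while Scd1 was at 1466. In the Ion Torrent STAR table Scd1 (1057) and Thrsp (637) again led, but Acacb (18.6) stood above Acaca (9.39), and with GSNAP Acacb stood above Acaca in the Illumina table too (10.94 and 8.28), so the order of this pair differed between aligners as well as between platforms. Within a mouse, the ratio of Fasn to Acaca per kb was 3.79 to 5.40 in treated mice (median 5.17) and 1.55 to 5.83 in untreated mice (median 2.24), so the groups overlapped.

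Genes around the pathway were counted in 5 lists, 77 genes in all, each read against the 22.9% of tested genes that fell and the 22.7% that rose. Of the 77, 38 were called in either direction, a share near the 45.7% of all tested genes that were. Without UNT_9584, 37 of the 77 were called. SREBP and ChREBP partners and regulators numbered 15, of which 4 rose, 3 fell and 8 did not pass, with a median log2 fold change of 0.03. Ppargc1b, a coactivator of SREBP-1c, fell by 2.48 on the log2 scale (5.75 ± 3.52 to 1.02 ± 0.685 CPM, SD, n = 5 each, edgeR adjusted p = 0.000353). Scap, the escort that carries SREBP precursors to the Golgi, fell by 0.59, and Pparg, a nuclear receptor of fat storage, by 0.67. The paralogs of the transcription factor genes rose: Srebf2, whose product controls cholesterol synthesis, went up by 0.88, and Mlxip, the MondoA gene, by 0.78. Srebf2 and Mlxip had no overlap between groups, with means of 38.1 and 16.6 CPM untreated and 70.2 and 28.4 CPM treated. Nr1h2, which encodes the LXRβ receptor, rose by 0.96.

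Of 18 genes that supply carbon and NADPH, 1 rose, 9 fell and 8 did not pass (median -0.40). Slc2a2, the GLUT2 glucose transporter, went from 305 ± 40.6 to 56.0 ± 15.4 CPM (SD, n = 5 each), a fall of 2.44 on the log2 scale (edgeR adjusted p = 3.18e-08). Pklr, liver pyruvate kinase and a ChREBP target, fell by 1.54, and Acss2, which makes acetyl-CoA from acetate, by 1.03. Pgd, of the pentose phosphate path that yields NADPH, rose by 0.77. This list's share of falls, 9 of 18, was above the background, as was that of the lipogenesis genes, 5 of 10. So were the shares of 2 lists below, glycerolipid genes (6 of 16) and carboxylase control genes (5 of 11). The shares of falls among SREBP and ChREBP partners and regulators (3 of 15) and among elongation, desaturation and activation genes (4 of 17) were near the background. None of these shares was given a test. Of the 15578 genes behind the background, 11929 averaged 10 or more reads, and the part of read depth in these shares was not tested.

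Of 17 genes of elongation, desaturation and activation, 2 rose, 4 fell and 11 did not pass (median -0.18). Acsl1, which activates long-chain fatty acids, went from 1354 ± 176 to 295 ± 60.8 CPM (SD, n = 5 each), a fall of 2.198 on the log2 scale (edgeR adjusted p = 2.21e-08). The desaturases of polyunsaturated fatty acids, Fads1 and Fads2, fell by 0.65 and 0.77 without overlap. Hsd17b12, a reductase of the elongation cycle, rose by 0.68, and Elovl1, an elongase of saturated very long chains, by 0.36. The Scd1 paralogs Scd2, Scd3 and Scd4 had values of -0.39, -0.13 and 0.17 and did not pass.

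Among 16 genes of glycerolipid assembly and droplets, 4 rose, 6 fell and 6 did not pass (median -0.21). Gpam, the mitochondrial glycerol-3-phosphate acyltransferase that starts triglyceride synthesis, fell by 1.53, Gpd1, the source of its substrate, by 0.91, and Cideb, a droplet protein of hepatocytes, by 0.66. Cidec, which enlarges droplets, rose by 2.32 from 2.36 ± 0.960 to 11.8 ± 3.60 CPM (SD, n = 5 each). Lpin1, a phosphatidate phosphatase, rose by 1.34 and Dgat2, the last acyltransferase, by 0.71, each with overlapping groups.

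Of 11 genes that control acetyl-CoA carboxylase, 0 rose, 5 fell and 6 did not pass (median -0.07). Mid1ip1, the paralog of Thrsp whose product promotes polymerisation of the carboxylase, was at 35.0, 78.5, 78.6, 34.5 and 23.8 CPM in untreated and 25.1, 12.5, 7.94, 9.42 and 13.3 CPM in treated mice. It fell by 1.87 on the log2 scale (edgeR adjusted p = 0.000496), beside the value of 0.09 for Thrsp, and the difference between the paralogs was not tested. The AMPK subunit genes Prkaa2 and Prkag2, of the kinase that inhibits the carboxylases, fell by 1.13 and 1.09 without overlap. The remaining AMPK subunit genes of the list, Prkaa1, Prkab1, Prkab2 and Prkag1, had values of -0.07, 0.24, 0.29 and -0.06 and did not pass. The other 2 genes of the list that fell, named after their values were seen, were Hlcs, which attaches biotin to the carboxylases, at -1.08, and Mlycd, which degrades malonyl-CoA, at -0.91.

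**Figure D4:**
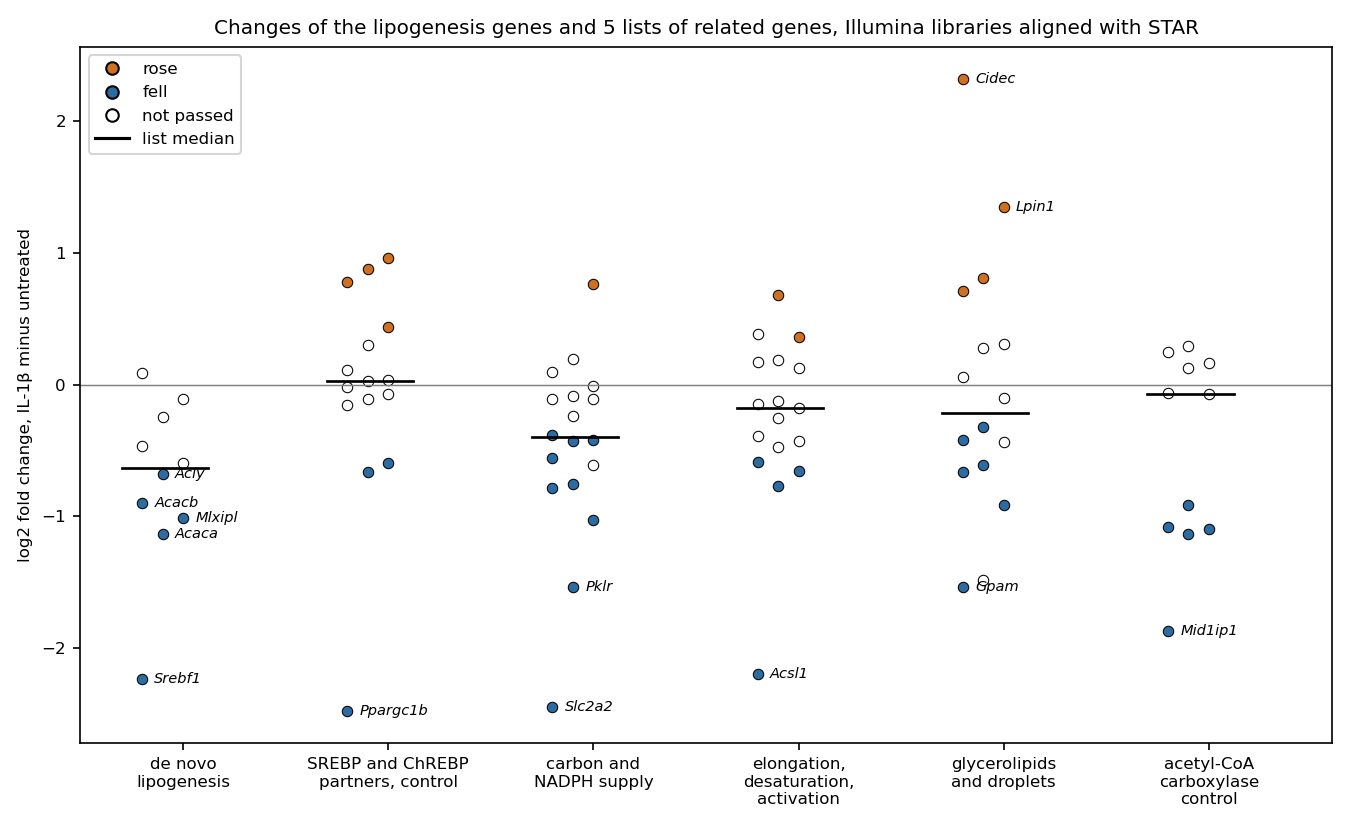
Log2 fold change (IL-1β minus untreated) of the 10 lipogenesis genes and 77 related genes in 5 lists, Illumina libraries aligned with STAR. Each point is a gene, orange where it rose, blue where it fell and white where it did not pass, and bars are list medians. The lowest values are those of Ppargc1b, Slc2a2, Srebf1 and Acsl1, at -2.476 to -2.198.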

How the data were processed

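RNA of 10 livers was sequenced on 2 platforms, which gave 20 libraries. The deposited values are whole-number counts per gene, in 6 tables of 10 libraries. The authors aligned reads to mm9 with GSNAP, STAR (2.5.1b) or STAR followed by Bowtie2 (2.2.9), as the submitters' processing notes list them, removed rRNA and mitochondrial reads, counted reads per Ensembl gene and drew each library of a table down toward the smallest one. Whether an Illumina count is a read or a read pair is not given in the sources used here. All 60 columns of counts were used, and no column repeated another.

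Since each table was scaled on its own, the groups were compared inside one table at a time. A gene was tested where 5 or more libraries of some table held no fewer than 5 reads, by the quasi-likelihood test of edgeR with TMM scaling and Benjamini-Hochberg adjustment at 0.05, in place of the study's rank-sum test, which was an alternative. The standard error is the log2 fold change over the square root of F. All genes of a table were fitted together, and CPM use TMM-scaled library sizes. The platform-by-treatment term was fitted to the 20 STAR libraries with the mouse as a block, since the labels give both libraries of a mouse the same number and both came from the same RNA. Deviations of a mouse's libraries from the group means correlated at 0.247 to 0.750, and in 9 of 10 mice the best match was the same mouse. Treated and untreated mice share no number.

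The 10 genes and all lists were chosen with earlier results of these data known. All 10 genes are named, and from each wider list up to 3 of the largest rises and falls among genes called on both platforms with STAR, plus close paralogs. Positions are those of the annotation on NCBIM37 (mm9), an Ensembl release close to but not the same as the one the authors used, and all 130 listed genes were found in it. Upstream windows are from RefSeq on GRCm38.p6, where 9 of the 10 genes matched by symbol. Transcripts were compared with BLAST+ 2.17.0. Alternatives were DESeq2, limma-voom, rank-sum tests, other scaling and filters, a log2 fold change above 1, the other tables and leaving out each mouse. Leaving mice out of the Ion Torrent STAR table and counting all genes called by the platform term in each fit were added after seeing the data. Precision is that of 5 mice a group, and depth is the re-sampled total. The fits used edgeR 4.0.16, DESeq2 1.42.0 and limma 3.58.1 in R 4.3.3, and figures matplotlib 3.10.9 in Python 3.11.15. Scripts were tested on simulated data.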

Additional observations from a re-analysis of the deposited data

Results flagged for a closer look

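Each group of 5 mice was screened for a mouse far from the rest, by the gap to its nearest neighbour over the range of the group. Of 40 groups of the 10 lipogenesis genes in the STAR tables, 4 held such a mouse, and chance gives about 5% of groups where these are independent and values are normal. These groups are not independent, since the same 10 mice were read on both platforms, and CPM were not logged. The 5% is therefore only a rough guide. Untreated mouse UNT_9576 was far above the others for Acaca, at 207 CPM against 143 CPM for the next mouse in the Illumina libraries and at 129 CPM against 90.6 CPM in the Ion Torrent libraries. It was also far above them for Thrsp in the Illumina libraries, at 1323 CPM against 493 CPM. Untreated mouse UNT_9580 was far above the others for Mlxipl in the Illumina libraries, at 598 CPM against 447 CPM. In the Ion Torrent libraries Mlxipl was at 634 CPM in that mouse and at 721 CPM in UNT_9584, so it was not the highest there. The Acaca fall does not rest on UNT_9576: without it the log2 fold change was -0.996 in the Illumina STAR table and -1.15 in the Ion Torrent STAR table.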

How the results depend on the processing

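Srebf1, Mlxipl, Acly and Acaca fell and passed under every one of the 22 alternatives run for each, and Acacb under 21 of 22, the exception being the rank-sum test on scaled CPM (adjusted p = 0.0699 by that test). Requiring a log2 fold change above 1 as well left 3 of the 10 lipogenesis genes, 12 of the 77 related genes (38 otherwise) and 2634 genes in all (7116 otherwise), which follows from the narrower rule. Thrsp turned to -0.090 by the means of the deposited counts and to -0.037 with library totals only, and leaving out 1 mouse at a time gave it -0.13 to 0.64. The same leave-one-out gave -0.78 to 0.0024 for Fasn, -0.26 to 0.15 for Elovl6 and -0.52 to 0.11 for Scd1. None of these but Thrsp without UNT_9576 passed. The number of lipogenesis genes called was 5 or 6 without each mouse in the Illumina STAR table and 5 or 6 in the Ion Torrent STAR table, where Fasn ranged from -1.01 to -0.39. For the platform-by-treatment term, 0 of the 10 genes passed with the mouse block or without it, by edgeR or limma-voom and with any aligner. With edgeR and the block, 1090 of all genes had an unadjusted p below 0.05 and 1 passed adjustment, while 10 passed with GSNAP, 12 with STAR + Bowtie2, 0 with limma-voom (1272 at an unadjusted p below 0.05) and 1 to 10 without each mouse, 10 being without UNT_9584 and 2 without UNT_9574. The cause was not tested. Without the replicate block, which pairs the libraries of a mouse, the Fasn term was -0.25 in place of -0.32 and 0 of all genes passed, with 244 at an unadjusted p below 0.05. Mean counts of the lipogenesis genes were 441 or more in the Illumina STAR table.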
